A study of Bos taurus with 15 samples.

Results

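Homeobox genes encode transcription factors with a homeodomain, and 36 of the 15208 probes on the array were assigned to this group. A probe was taken where its gene name began with HOX, MSX or DLX or where its description contained the word homeobox or homeo box, and 1 further probe, for CDX2, was left out. The wording, and not a measured value, decides which probes are members, but the group was picked for description with earlier results of these data known. The wording did not reach some homeodomain genes on the array, such as PBX3, ZEB1 and the POU genes. The samples were caruncular endometrium of Japanese Black cows collected on days 15 and 18, the day of artificial insemination being day 1. They came from 4 non-pregnant cows (NP15) and 3 pregnant cows (P15) on day 15, and from 4 non-pregnant cows (NP18) and 4 pregnant cows (P18) on day 18. Each cow was measured on 1 array. The paper gives more animals per stage than the P15 arrays analyzed here. Pregnancy was judged by eye from the presence of fetal trophoblast, and the non-pregnant cows were at the same day of the estrous cycle.

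The homeodomain is a fold that binds DNA in the promoters and enhancers of target genes, with its recognition helix in the major groove. HOX genes lie in clusters and set regional identity along the body axis, including the reproductive tract, where HOXA10 is needed for a receptive endometrium. MSX1 and MSX2 are repressors that act in the uterine epithelium, where they control cell polarity before implantation in the mouse, and they are known targets of bone morphogenetic protein (BMP) signals.

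Probes that carried the results are shown to identify what was measured. The first 30 of their 60 bases are given, 5′ to 3′, with no part in capitals.

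MSX1: cttctgtttctatttaacagtacatgtggg
MSX2: ttaatctgccagatgcgccccccacccctt
DLX5: cctgccgctttcttttgctctcttttttgg
DLX6: agacattacatgatgaaaaagaagcagttt
HOXA2: ctgacagctttgacttttttacagacacac
PRRX1: atcaagctggaagaggtgactggataaaaa
ZHX2: cccccatcccactgccccctatttgagtac

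Although the proteins share a domain, no member probe shared a run of more than 15 bases with another probe on the array, with the exception of HOXB9. The HOXB9 probe had 52 bases in common with a probe that is no member, so its signal is uncertain.

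Values are processed intensities divided by the median of their array, and are called signal in array medians. Between 78.4 and 88.3% of probes were well above background in the arrays of day 15, and between 65.6 and 76.8% in those of day 18, and correlations between arrays of a group were 0.945 to 0.989 over 13130 probes. Of 15 genes that define endometrium, 8 had a probe, and each of these but ESR1 was detected in all 15 arrays. ESR1 was detected in 9 of 15 arrays, with 0 of 4 in P18. MSX1 and HOXA10, among the 8, are also members. In genes other than the members, single arrays stood apart in 3 of the groups. The oxytocin receptor gene OXTR was at 0.281 array medians in NP18 replicate 1 and at 40.6 to 74.4 in the other NP18 arrays, against 0.752 to 3.56 in P18. In NP15 replicate 3, the summed signal of 8 stromal markers was 1714 array medians, against 869 to 1227 in the other NP15 arrays. NP18 replicate 4 was at 83.9 for FOXL2, 143 for SERPINA14 and 469 for the summed smooth muscle markers, against at most 25.5, 15.1 and 282 in the other NP18 arrays. Endothelial markers summed to 170 in NP15 replicate 4, against 61.7 to 76.7 in the others, and leukocyte markers to 169 in P18 replicate 3, against 35.8 to 51.7. Because each array holds another cow, p-values measure the spread between these cows, and the number of arrays limits the precision. In bulk tissue, fewer cells of a type and less RNA per cell cannot be told apart.

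Of the 36 members, 28 passed the limit for testing, which was 3 arrays with a signal well above background, and 16 had such a signal in all 15. All 4 MSX and DLX probes and all 3 ZHX probes were in the last group, and so were 6 of 11 HOX probes. Of the TALE class (MEIS, PKNOX and IRX), 1 of 4 was detected in every array, of the paired-like class 2 of 7, and of the LIM class 0 of 3. The 8 members that were not tested were well above background in 0 to 2 arrays, with IRX2, LHX9 and NANOG in none. ALX4 and HOXC8 were just inside the limit with 3 arrays, and ESX1 and the probe described as similar to DBX2 were just outside it with 2. The lowest signal well above background was 9.60 to 28.3 intensity units on day 15 and 53.5 to 75.03 on day 18, so that a weak probe had a higher limit to pass on day 18.

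**Figure D1:**
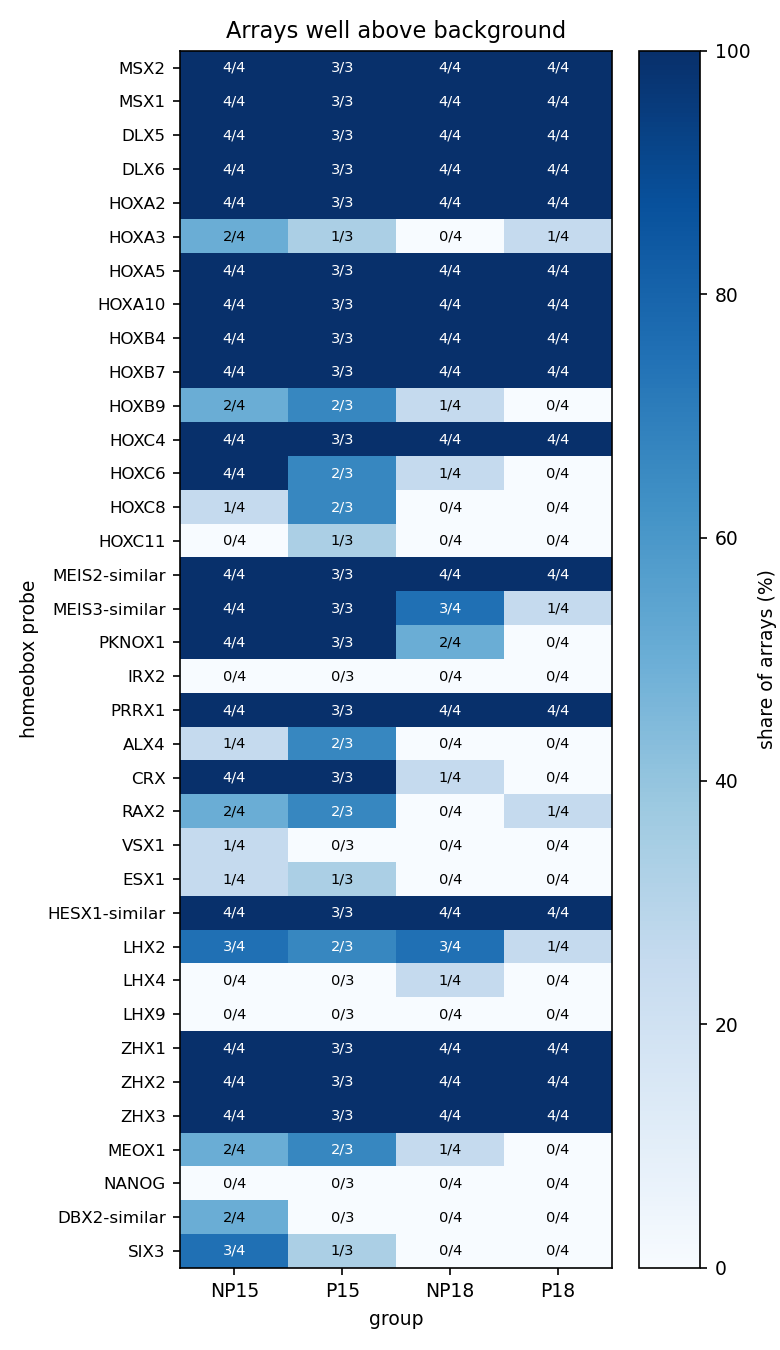
Number of arrays in which each of the 36 homeobox probes (rows) was well above background, of the number of arrays in each group (columns), with the share in color. The 16 probes at full share in every group include all MSX, DLX and ZHX probes, and most weak probes passed in fewer arrays on day 18.

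MSX2 had the largest difference of any member between pregnant and non-pregnant cows on day 15, and it was the 1 member called there. In NP15, its signal was 9.27, 11.3, 15.1 and 5.44 array medians, and in P15 it was 2.20, 3.97 and 1.47. All 3 pregnant arrays lay below all 4 non-pregnant arrays. The log2 fold change was -2.04 ± 0.39 (SE), a fold of 4.11 (limma, adjusted p = 0.0281), and the exact two-sided permutation test gave the smallest p this design allows (p = 0.0571). On day 18, MSX2 was at 1.80, 3.504, 3.58 and 3.30 array medians in NP18 and at 1.78, 1.65, 1.35 and 2.22 in P18. NP18 replicate 1 lay within the pregnant range and the other NP18 arrays lay above it. The log2 fold change on day 18 was -0.77 ± 0.36 (SE) and was not called (limma, adjusted p = 0.205). Without NP18 replicate 1 it was -1.004 (limma, adjusted p = 0.0905).

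Between the days, MSX2 fell in the non-pregnant cows. Every NP18 array was below every NP15 array, with a log2 fold change of -1.71 ± 0.36 (SE) from NP15 to NP18 (limma, adjusted p = 0.0101). In the pregnant cows, P18 and P15 overlapped, with a log2 fold change of -0.44 ± 0.39 (limma, adjusted p = 0.451). MSX2 was thus high in NP15 and lower in each of the other groups, with means ± SD of 10.3 ± 4.03 (n = 4) in NP15, 2.55 ± 1.29 (n = 3) in P15, 3.05 ± 0.838 (n = 4) in NP18 and 1.75 ± 0.362 (n = 4) in P18. The difference between the effects of pregnancy on the 2 days was 1.27 ± 0.53 on the log2 scale and was not called (limma, adjusted p = 0.204).

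MSX1, the paralog of MSX2, was called on day 18. In NP18, its signal was 53.3, 78.5, 66.2 and 103.1 array medians, and in P18 it was 25.9, 19.4, 26.1 and 25.8. The groups did not overlap, and the P18 arrays were close together. The log2 fold change was -1.60 ± 0.37 (SE), a fold of 3.03 (limma, adjusted p = 0.0197; exact permutation p = 0.0286). This exact p is the smallest that 4 against 4 arrays allow. Groups of that size without overlap always give it, here and for the genes below, so it adds nothing to the absence of overlap. On day 15, MSX1 was at 54.9, 56.1, 14.6 and 35.5 array medians in NP15 and at 20.5, 25.4 and 14.5 in P15. NP15 replicate 3 lay at the low end of the pregnant range and the other NP15 arrays lay above it. With all arrays, the log2 fold change on day 15 was -0.86 ± 0.40 and was not called (limma, adjusted p = 0.338), but without NP15 replicate 3 it was -1.28 and was called (limma, adjusted p = 0.0347). Calls over all 13164 probes on day 15 also rose without that array, from 105 to 344. From NP15 to NP18, MSX1 differed by 1.04 ± 0.37 (limma, adjusted p = 0.0817), the opposite sign to MSX2.

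DLX5 and DLX6, distal-less factors that are neighbors in the bovine genome with 0 genes between them, were lower on average in pregnant cows on both days, and neither was called. DLX5 was at 19.6, 17.6, 3.30 and 13.1 array medians in NP15 and at 5.55, 6.80 and 2.82 in P15. DLX6 was at 5.42, 4.96, 1.26 and 5.78 in NP15 and at 2.44, 2.85 and 1.46 in P15. For both genes, NP15 replicate 3 was the lowest array of its group and the other NP15 arrays exceeded every P15 array. The log2 fold changes on day 15 were -1.22 ± 0.58 for DLX5 (limma, adjusted p = 0.342) and -0.79 ± 0.51 for DLX6 (limma, adjusted p = 0.490). Without NP15 replicate 3, they were -1.80 (limma, adjusted p = 0.0503) and -1.31 (limma, adjusted p = 0.0793), and without P15 replicate 3 they were -0.85 (limma, adjusted p = 0.720) and -0.50 (limma, adjusted p = 0.834). On day 18, DLX5 was at 6.65, 14.6, 8.66 and 9.87 array medians in NP18 and at 6.55, 4.51, 2.36 and 8.59 in P18. DLX6 was at 2.51, 7.90, 3.85 and 5.49 in NP18 and at 2.85, 1.99, 1.93 and 3.35 in P18. The groups overlapped for both genes, with log2 fold changes of -0.95 ± 0.54 for DLX5 (limma, adjusted p = 0.300) and -0.88 ± 0.47 for DLX6 (limma, adjusted p = 0.271).

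**Figure D2:**
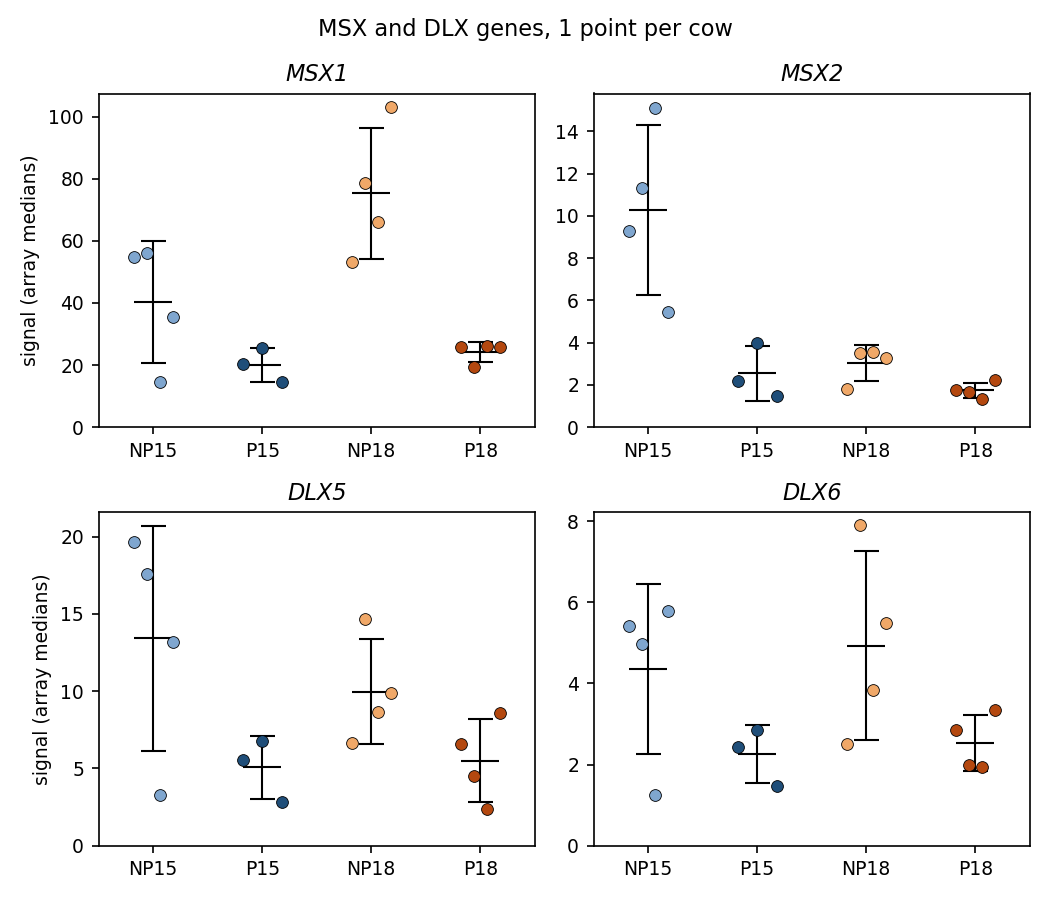
Signal in array medians (linear axis from 0) of MSX1, MSX2, DLX5 and DLX6 in NP15, P15, NP18 and P18, with 1 point per cow and the mean ± SD in black. MSX2 lies lower in all 3 P15 than in all 4 NP15 arrays, and MSX1 lower in all P18 than in all NP18 arrays.

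As a class, all 4 MSX and DLX probes had negative log2 fold changes on both days, with medians of -1.04 on day 15 and -0.91 on day 18. The medians over all probes tested were -0.06 and 0.07. Markers of epithelium, in which the MSX genes are known to act, differed in the same direction on day 15: 0 of 11 were higher in P15, limma called none (2 passed an unadjusted p below 0.05), and their summed signal was 235 to 350 array medians in NP15 and 127 to 179 in P15. On day 18, the sums overlapped (131 to 353 in NP18 and 213 to 270 in P18). The part of the epithelium in the MSX and DLX results was not tested.

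Among the HOX genes, HOXA2 and HOXB7 were called on day 18, both lower in pregnant cows. HOXA2, the most anterior HOX gene measured, was at 0.671, 1.38, 0.571 and 1.53 array medians in NP18 and at 0.310, 0.302, 0.282 and 0.366 in P18. The groups did not overlap, and the P18 arrays varied little. The log2 fold change was -1.60 ± 0.37 (SE), a fold of 3.03 (limma, adjusted p = 0.0196; exact permutation p = 0.0286). On day 15, HOXA2 was at 0.722, 1.38, 0.631 and 1.55 array medians in NP15 and at 0.688, 0.554 and 0.361 in P15. There the groups overlapped, and the log2 fold change was -0.95 ± 0.40 (limma, adjusted p = 0.282).

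HOXB7 differed on day 18 and not detectably on day 15. Its signal was 6.22, 12.7, 9.15 and 7.72 array medians in NP18 and 5.197, 3.03, 1.72 and 3.48 in P18. No P18 array reached the lowest NP18 array, and the log2 fold change was -1.47 ± 0.37 (SE), a fold of 2.77 (limma, adjusted p = 0.0297; exact permutation p = 0.0286). On day 15, it was at 6.496, 9.81, 5.28 and 2.999 in NP15 and at 6.08, 5.95 and 5.1995 in P15, all 3 inside the NP15 range. The difference between the days was -1.49 ± 0.55 on the log2 scale and was not called (limma, adjusted p = 0.150).

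HOXA10 was higher in all 3 P15 arrays than in all 4 NP15 arrays, and was not called. It was at 49.5, 40.5, 85.7 and 64.4 array medians in NP15 and at 89.1, 98.3 and 104.3 in P15, with a log2 fold change of 0.75 ± 0.28 (limma, adjusted p = 0.227). Its means on day 18 were 86.04 ± 22.5 (SD, n = 4) in NP18 and 107 ± 19.3 (SD, n = 4) in P18. HOXB4 had means of 10.1 ± 4.69 in NP15 (n = 4) and 6.81 ± 0.915 in P15 (n = 3), and of 15.4 ± 4.91 in NP18 and 9.67 ± 0.805 in P18 (n = 4 each), with a log2 fold change on day 18 of -0.62 ± 0.32 (limma, adjusted p = 0.262). HOXA5 had means of 4.35 ± 1.37 in NP15, 4.59 ± 0.560 in P15, 3.45 ± 0.885 in NP18 and 3.01 ± 0.541 in P18. HOXC4 had means of 9.08 ± 3.24, 8.51 ± 2.29, 6.03 ± 2.68 and 7.402 ± 1.64 in the same order. Neither gene differed detectably between pregnant and non-pregnant cows, with log2 fold changes on day 18 of -0.17 ± 0.26 for HOXA5 and 0.39 ± 0.37 for HOXC4.

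HOXA3, HOXB9, HOXC6 and HOXC8 were tested but weak, with group means of 0.0161 to 0.0898 array medians and detection in 3 to 7 of the 15 arrays. HOXC6 was well above background in 4 of 4 NP15, 2 of 3 P15, 1 of 4 NP18 and 0 of 4 P18 arrays, with measured means ± SD of 0.0898 ± 0.0314, 0.0561 ± 0.00479, 0.0545 ± 0.0244 and 0.0393 ± 0.00778 in that order. The means of HOXB9 were 0.0456 ± 0.0203, 0.0712 ± 0.0903, 0.0568 ± 0.0207 and 0.0271 ± 0.00748, with 2, 2, 1 and 0 arrays well above background. Those of HOXC8 were 0.0224 ± 0.0142, 0.0214 ± 0.0102, 0.0345 ± 0.0158 and 0.0274 ± 0.00678, with 1, 2, 0 and 0 such arrays. Those of HOXA3 were 0.0367 ± 0.00984, 0.0161 ± 0.00639, 0.0426 ± 0.0241 and 0.0705 ± 0.0330, with 2, 1, 0 and 1 such arrays. HOXA3 on day 15 had a log2 fold change of -1.22 ± 0.48 (limma, adjusted p = 0.247), with 1 of 3 P15 and 2 of 4 NP15 arrays well above background. These probes lay near the limit of detection, and on day 18 no fold is given for them. Some values equalled that of NANOG in the same array, the surrogate set for spots at or below background. These were HOXB9 in P18 replicates 2, 3 and 4, and HOXA3 in P15 replicate 2 and P18 replicate 3. For HOXC8 they fell in every group: NP15 replicate 2, P15 replicate 2, NP18 replicate 4 and P18 replicates 1, 3 and 4. Such means and SDs describe in part the floor of the arrays. In the HOX class, 4 of 10 tested probes were higher and 6 lower on day 15, and 3 were higher and 7 lower on day 18. These counts turned with the processing, to 5 and 5 on day 15 with scaling by the 75th percentile and to 6 higher and 4 lower on day 18 after normexp background correction. HOXA2 and HOXA10 of the HOXA cluster, with 7 genes between them, had opposite signs on both days.

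**Figure D3:**
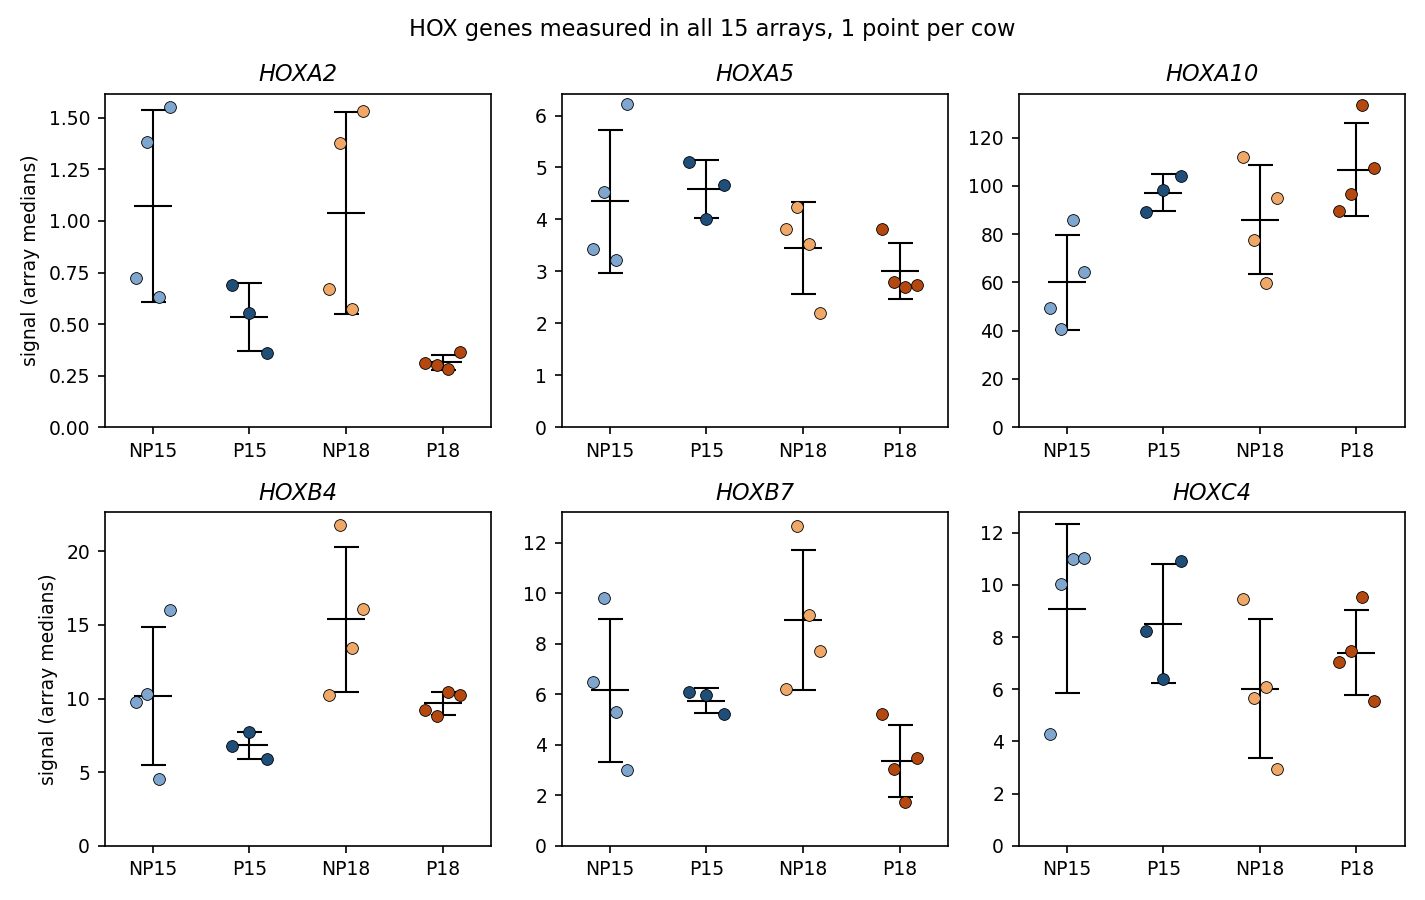
Signal in array medians (linear axis from 0) of the 6 HOX genes detected in all 15 arrays, with 1 point per cow and the mean ± SD in black. HOXA2 and HOXB7 lie lower in all P18 than in all NP18 arrays, and HOXA10 higher in all P15 than in all NP15 arrays.

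Among the paired-like genes, PRRX1, a factor of mesenchymal cells, had opposite signs of the pregnancy effect on the 2 days. It was at 9.71, 14.4, 19.0 and 16.6 array medians in NP15 and at 23.3, 19.7 and 22.3 in P15. It was at 32.5, 31.0, 25.7 and 67.5 in NP18 and at 19.8, 20.2, 21.6 and 14.5 in P18. Every pregnant array was above every non-pregnant array on day 15 and below every one on day 18. The pregnant groups had means of 21.8 ± 1.85 (SD, n = 3) and 19.02 ± 3.10 (n = 4), and the non-pregnant groups had means of 14.9 ± 3.96 and 39.2 ± 19.1 (n = 4 each). The rise from NP15 to NP18 was 1.33 ± 0.29 (SE) on the log2 scale, a fold of 2.51, and was called (limma, adjusted p = 0.0126; exact permutation p = 0.0286).

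The log2 fold change of PRRX1 was 0.58 ± 0.31 on day 15 (limma, adjusted p = 0.405) and -0.95 ± 0.29 on day 18 (limma, adjusted p = 0.0643), and neither was called. The day 18 difference passed both limits with the 75th percentile, quantile normalization, normexp background correction or the authors' log2 table (-1.03 in each; limma, adjusted p = 0.0206 to 0.0354). Their difference of -1.54 ± 0.43 was not called with median scaling (limma, adjusted p = 0.0665). It was called under the same 4 alternatives and with array weights (limma, adjusted p = 0.00854 to 0.0403). VIM, a mesenchymal gene among the stromal markers, also differed in this way, with a difference of -2.05 ± 0.43 (limma, adjusted p = 0.0251). It was the 1 marker called of 8 tested, and its call was lost with scan day as a block (limma, adjusted p = 0.618). Of the 8, 7 were higher in P15 than in NP15, and 4 were higher in P18 than in NP18. The summed stromal signal was 869 to 1714 array medians in NP15 and 1166 to 1291 in P15. It was 718 to 1194 in NP18 and 688 to 849 in P18, and its part in the PRRX1 result was not tested. The probe described as a homeo box gene expressed in ES cells, called HESX1-similar here and of the same class, had means of 3.86 ± 1.61 in NP15, 4.23 ± 0.0519 in P15, 3.61 ± 0.755 in NP18 and 3.82 ± 0.264 in P18, and was not called in any comparison.

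The ZHX genes, whose proteins combine zinc fingers with homeodomains and act as repressors, were detected in every array. ZHX2 was at 4.19, 3.36, 4.97 and 5.02 array medians in NP15 and at 2.23, 2.10, 2.26 and 1.99 in NP18. The NP18 arrays were all lower and closer together, and the log2 fold change from NP15 to NP18 was -1.01 ± 0.18 (SE; limma, adjusted p = 0.00449; exact permutation p = 0.0286). In pregnant cows, it was at 3.38, 3.58 and 3.42 in P15 and at 2.40, 1.98, 2.66 and 2.22 in P18, without overlap, with a log2 fold change of -0.59 ± 0.19 (limma, adjusted p = 0.0522). The fall in the non-pregnant cows was just over the fold limit of 2, at 2.02-fold, and it was -0.95 without NP15 replicate 3, -0.94 without NP15 replicate 4 and -0.98 without NP18 replicate 4, under that limit.

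ZHX1 was at 3.41, 1.77, 1.72 and 1.57 array medians in NP18 and at 3.05, 3.66, 4.01 and 3.02 in P18. NP18 replicate 1, the array that was also low in OXTR, lay within the pregnant range, and the other NP18 arrays lay below it. With all arrays, the log2 fold change was 0.76 ± 0.26 (limma, adjusted p = 0.0896), and without NP18 replicate 1 it was 1.02 and was called (limma, adjusted p = 0.0123). Of the 28 members, 4 were called on day 18 without this array, which were MSX1, HOXA2, HOXB7 and ZHX1. Of all 13164 probes, 1043 were called on day 18 without it, against 757 with all arrays. The means of ZHX1 on day 15 were 3.15 ± 0.680 in NP15 and 2.59 ± 0.431 in P15. ZHX3 had log2 fold changes of 0.16 ± 0.33 on day 15 and 0.35 ± 0.31 on day 18, neither called.

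Of the TALE class, whose MEIS proteins are DNA-binding partners of HOX proteins, the probe described as similar to MEIS2 was measured in every array. It was at 4.01, 5.95, 16.3 and 3.22 array medians in NP15 and at 15.5, 11.4 and 22.1 in P15. NP15 replicate 3 was again apart, inside the pregnant range. The log2 fold change was 1.40 ± 0.49 (limma, adjusted p = 0.201), and without NP15 replicate 3 it was 1.89 and was called (limma, adjusted p = 0.0228). Without that array, 344 of all 13164 probes were called on day 15, against 105 with all arrays.

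**Figure D4:**
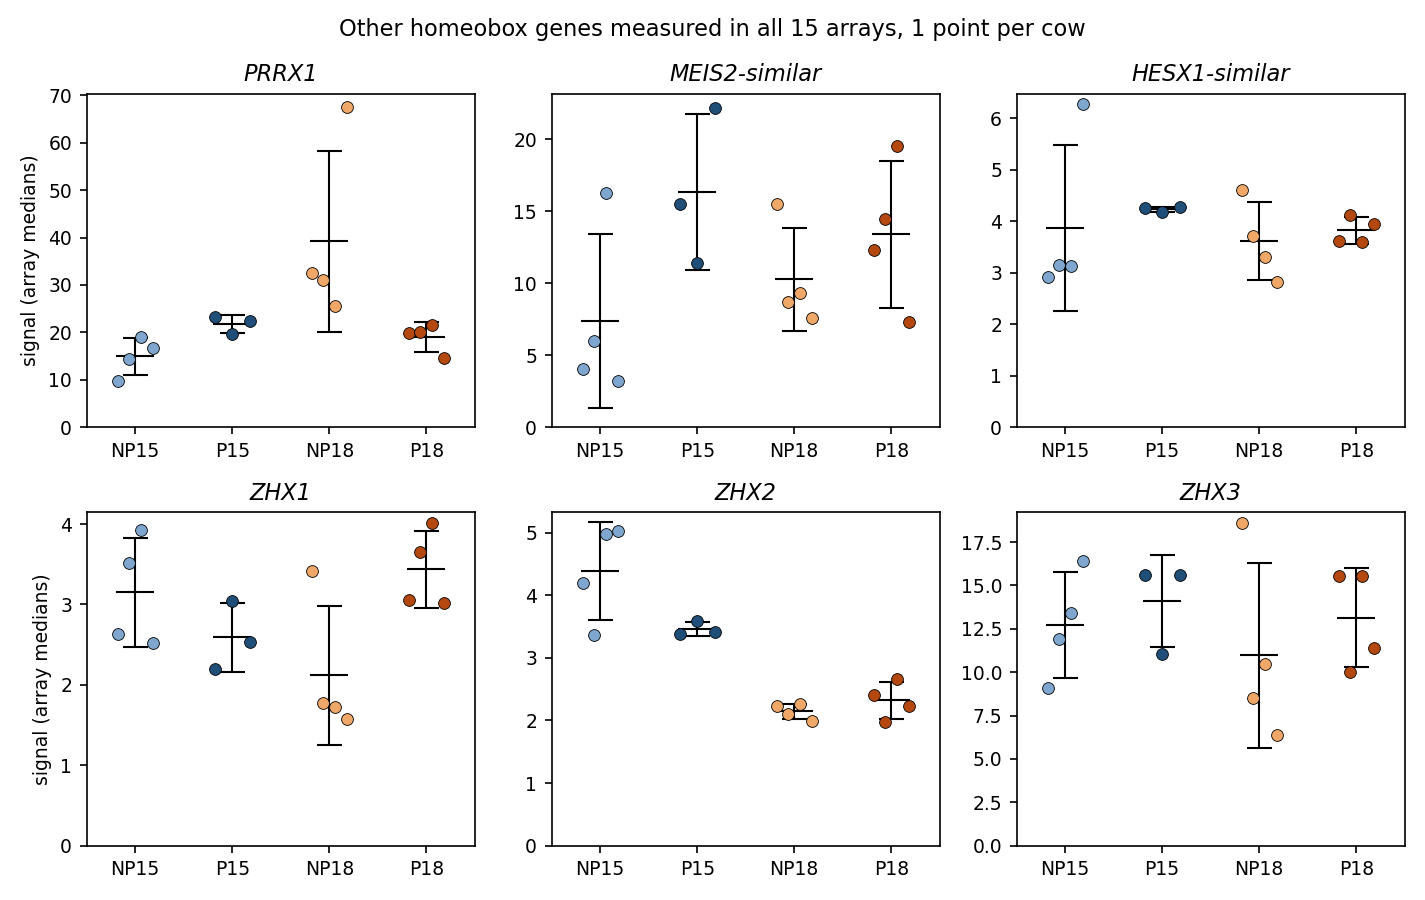
Signal in array medians (linear axis from 0) of the 6 other homeobox genes detected in all 15 arrays, with 1 point per cow and the mean ± SD in black. PRRX1 lies higher in P15 than in NP15 and lower in P18 than in NP18, and ZHX2 lies lower in NP18 than in NP15.

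NP15 replicate 3 took part in several of these values. Of the 16 members detected in every array, it was the lowest NP15 array for 6 (MSX1, DLX5, DLX6, HOXA2, HOXA5 and HOXB4) and the highest for 5 (MSX2, HOXA10, the MEIS2-similar probe, PRRX1 and ZHX1). It also had the highest summed signal of its group for epithelial, stromal and smooth muscle markers. Being an extreme was not particular to this array. Of the same 16 members, P15 replicate 3 was lowest for 7 and highest for 4, and P18 replicate 3 lowest for 7 and highest for 8. NP15 replicates 3 and 4 were each scanned on a day of their own.

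In all, limma called 1 of 28 members on day 15, where 0.798% of all 13164 probes were called. It was lower, as were 0.448% of all probes. None of the 28 was called higher (0.349% of all probes), 6 members (14.9% of all probes) passed in both directions together at an unadjusted p below 0.05, and the methods' t-test with adjustment called 0. On day 18, it called 3 of 28, where 5.75% of all probes were called. The 3 were lower (MSX1, HOXA2 and HOXB7), where 2.1% of all probes were called lower, and 0 of 28 were called higher, where 3.65% were. At an unadjusted p below 0.05, 7 members passed on day 18 in both directions together, where 24.1% of all probes did, and the methods' t-test with adjustment called 1, which was MSX1. On day 15, PRRX1 and HOXA10 were higher without overlap, where 5.93% of all probes were, and MSX2 and HOXA3 were lower without overlap, where 9.71% were. On day 18, ALX4 was higher without overlap (10.5% of all probes), and MSX1, HOXA2, HOXB7 and PRRX1 were lower without overlap (5.8%). ALX4 was well above background in none of these 8 arrays. Its means were 0.0425 ± 0.0194 in NP18 and 0.0824 ± 0.00733 in P18, against 0.0394 ± 0.0298 in NP15 and 0.0619 ± 0.0673 in P15. The members' median log2 fold change was -0.09 on day 15 and -0.19 on day 18, against -0.06 and 0.07 over all probes tested. The sign of these medians turned with the processing. On day 18 the members' median was 0.15 after normexp background correction, with 19 of 28 higher in place of 12, and 0.10 over 36 members with no filter, and on day 15 it was 0.0042 with the 75th percentile.

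The difference between the effects of pregnancy on the 2 days was called for 0 of 28 members, where 2.72% of all probes were called (2.07% higher and 0.653% lower). At an unadjusted p below 0.05, 6 members passed, where 19.3% of all probes did. Limma with array weights called 5 members (11.4% of all probes) and limma after normexp background correction called 3 (10.5%). PRRX1 was called without NP15 replicate 3 (-1.67; limma, adjusted p = 0.0498) and ZHX1 without NP18 replicate 1 (1.29; limma, adjusted p = 0.0423). Of all 13164 probes, 549 and 418 were called without these arrays, against 358 with all arrays. From NP15 to NP18, limma called 3 of 28 members (MSX2 and ZHX2 lower, PRRX1 higher), where 7.16% of all probes were called (2.89% higher and 4.26% lower). These were also the 3 members without overlap between the days of the cycle, where 5.96% of all probes were higher and 7.11% lower without overlap. From P15 to P18, it called 2 of 28 (HOXA3 and PKNOX1), where 11.9% of all probes were called (7.58% higher and 4.31% lower). Without overlap from P15 to P18, 2 members were higher (26.7% of all probes) and 7 lower (16.1%).

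Both calls between the pregnant groups were of weak probes. The value of each in P18 replicate 3, and that of HOXA3 in P15 replicate 2, was the surrogate for spots at or below background. HOXA3 was at 0.0147, 0.0105 and 0.0231 array medians in P15 and at 0.0788, 0.113, 0.0367 and 0.0539 in P18, and was well above background in 1 of 3 and 1 of 4 arrays. PKNOX1 was at 0.146, 0.0918 and 0.140 in P15 and at 0.0835, 0.0595, 0.0367 and 0.0524 in P18, and was well above background in 3 of 3 and 0 of 4 arrays. Because the P18 arrays had only a bound for PKNOX1 and that bound lay above the P15 level, no fold is given. The adjusted p was 0.0120 for HOXA3 and 0.0250 for PKNOX1 with limma, and neither was called after normexp background correction. The call of HOXA3 was lost without P15 replicate 2 (limma, adjusted p = 0.0571), and that of PKNOX1 without P15 replicate 1 or 3 or P18 replicate 3 or 4 (limma, adjusted p = 0.0529 to 0.104). Of all 13164 probes, 1566 were called with all arrays and 883 without P15 replicate 2. Without P15 replicates 1 and 3 and P18 replicates 3 and 4, 737, 784, 992 and 1298 were called.

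Among members named for a low p, the photoreceptor factor CRX differed by -0.86 ± 0.29 from NP15 to NP18 on the log2 scale (limma, adjusted p = 0.0732), with 4 of 4 and 1 of 4 arrays well above background and means of 0.159 ± 0.0612 and 0.0877 ± 0.0356 array medians. It was called without NP15 replicate 4 or NP18 replicate 4 (limma, adjusted p = 0.0248 and 0.0318), where 897 and 616 of all 13164 probes were called, against 942 with all arrays. The probe described as similar to MEIS3 differed by -0.80 ± 0.34 from P15 to P18 (limma, adjusted p = 0.118), with 3 of 3 and 1 of 4 arrays well above background and means of 0.155 ± 0.0214 and 0.0912 ± 0.0260, against 0.111 ± 0.0349 in NP15 and 0.140 ± 0.0492 in NP18. Such probes met the higher limit of detection of day 18. Of the positive differences between the effects of the 2 days, the 3 with the lowest p were of HOXA3, for which no size is given, since 0 of 4 NP18 arrays were well above background, of MSX2 (1.27 ± 0.53) and of ZHX1 (1.03 ± 0.38; limma, adjusted p = 0.150), and 0 of them were called.

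**Figure D5:**
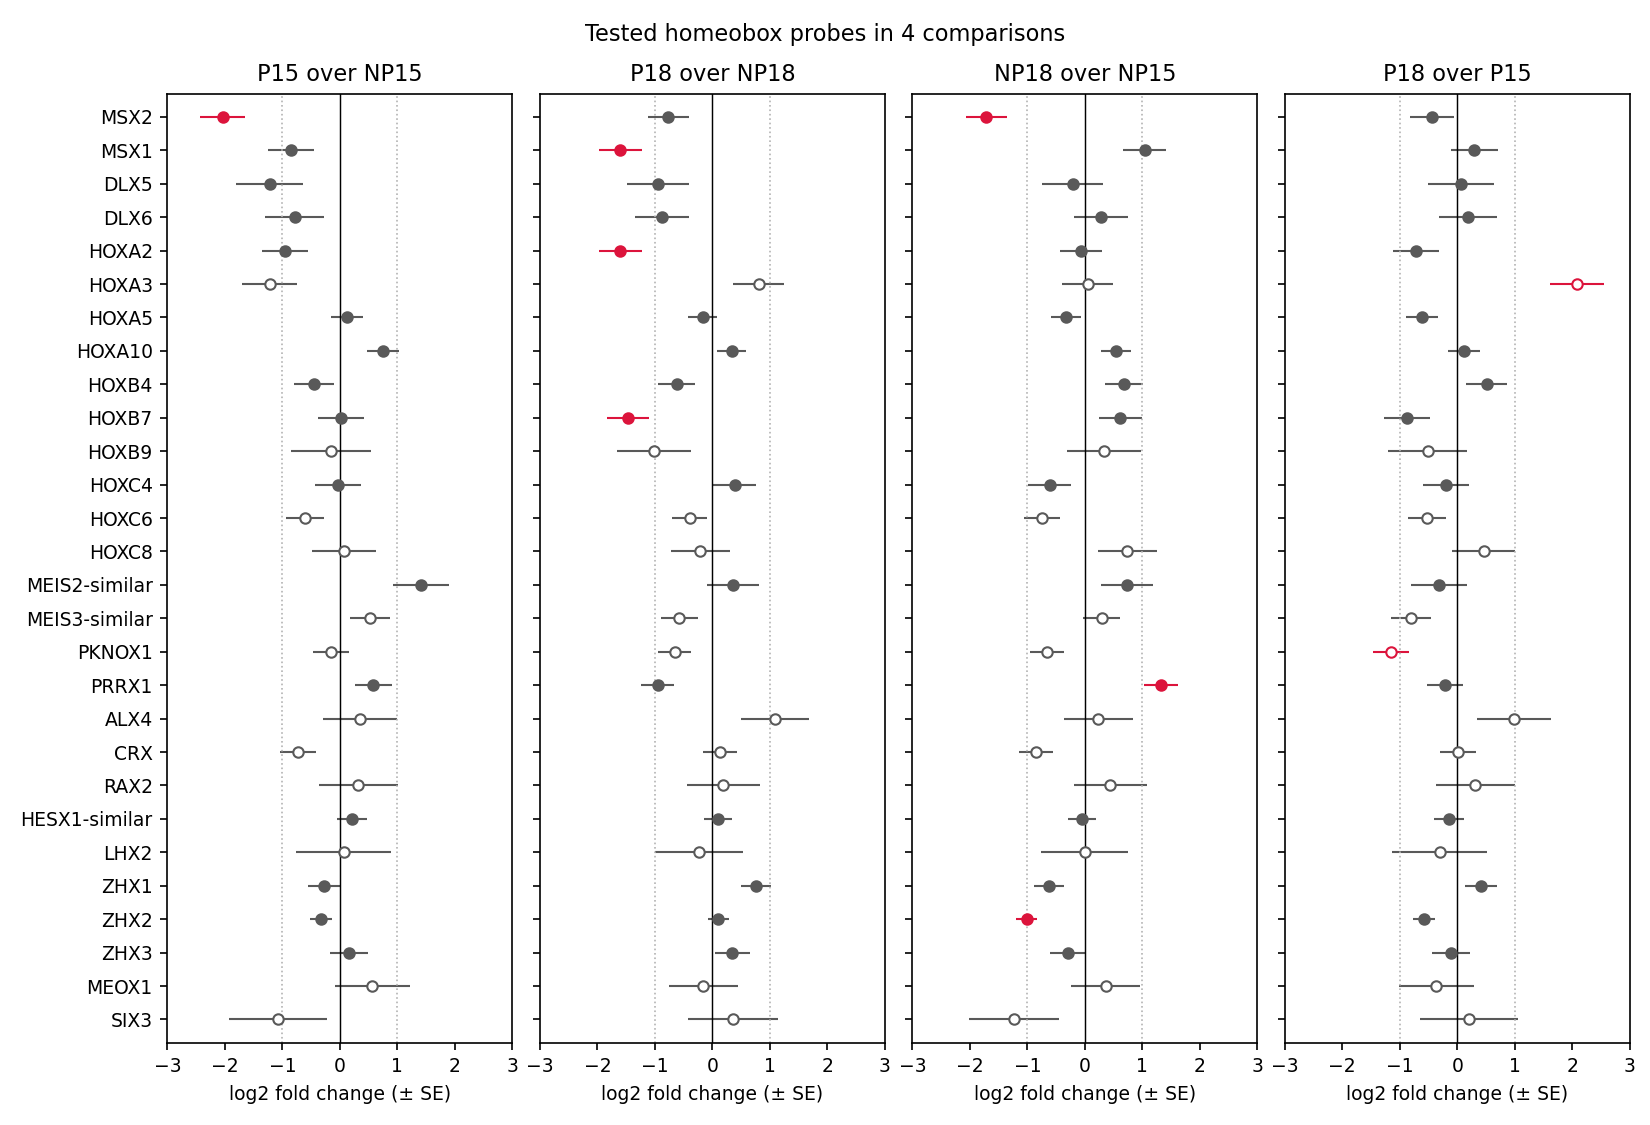
Log2 fold change ± SE of the 28 tested homeobox probes (rows) in 4 comparisons, with called probes in red, probes detected in all 15 arrays as filled points and weaker probes as open points, which rest in part on values near background. Dotted lines mark a fold of 2. The called probes are MSX2 on day 15, MSX1, HOXA2 and HOXB7 on day 18, MSX2, PRRX1 and ZHX2 between days of the cycle, and the weak HOXA3 and PKNOX1 between days of pregnancy.

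Genes that act before or beside the homeobox genes were taken from lists. Of 25 genes of BMP signaling, 13 were tested, and none was called between pregnant and non-pregnant cows on either day by limma, with 3 on day 15 and 4 on day 18 at an unadjusted p below 0.05. From NP15 to NP18, ID1, ID3 and ID4, targets of BMP signals, were called higher by 1.41 ± 0.30, 1.34 ± 0.27 and 1.95 ± 0.48 on the log2 scale. The transducer SMAD1 fell by 1.26 ± 0.21 and the antagonist CHRD fell by 1.32 ± 0.28 over the same days. With scan day as a block, none of these 5 was called (limma, adjusted p = 0.0991 to 0.291). From P15 to P18, where MSX2 did not differ detectably, ID1 and ID2 were called higher by 1.17 ± 0.32 and 1.12 ± 0.33 and CHRD fell by 1.68 ± 0.30, again not with scan day as a block (limma, adjusted p = 0.173 to 0.369). Of 18 tested uterine partners of the MSX and HOX genes, 3 were called on day 18: ESR1, the estrogen receptor, was called lower (limma, adjusted p = 0.00191), IGFBP3 fell by 1.36 ± 0.36, and LIFR, the receptor of leukemia inhibitory factor, rose by 1.37 ± 0.37. ESR1 was well above background in 3 of 4 NP18 and 0 of 4 P18 arrays, and no fold is given for it. Of 7 homeodomain cofactors tested, 1 was called on day 18, EYA2 (higher; limma, adjusted p = 0.0100), which was well above background in 0 of 4 NP18 and 1 of 4 P18 arrays. With scan day as a block, the calls of ESR1, IGFBP3, LIFR and EYA2 were lost (limma, adjusted p = 0.239, 0.686, 0.718 and 0.508). Of 6 chromatin regulators of HOX genes, limma called 0 on either day, with 4 on day 15 and 1 on day 18 at an unadjusted p below 0.05.

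Cell type markers also moved with pregnancy on day 18. The summed signal of 14 trophoblast markers was 10.3 to 539 array medians in P18 and 1.48 to 4.27 in NP18, with CSH2 at background in every array. Of the 9 tested, 6 were higher in P18, and TKDP1, TKDP4, PAG2, PAG8 and PAG11 were called. ELF5 was called lower in P18 (limma, adjusted p = 0.0262), so the sum rests on a part of the markers. Of 9 smooth muscle markers, 8 were lower in P18 and 3 were called (ACTA2, CNN1 and ACTG2), with sums of 65.9 to 164 in P18 and 110 to 469 in NP18. Of 11 endothelial markers, PECAM1 and TIE1 were called lower, with sums of 52.2 to 81.9 in P18 and 58.6 to 125 in NP18. Of 16 leukocyte markers, 13 were higher in P18 and ITGB2 was called (limma, adjusted p = 0.0385), with sums of 35.8 to 169 in P18 and 26.4 to 36.2 in NP18. With scan day as a block, the trophoblast, smooth muscle, endothelial and leukocyte calls were lost (limma, adjusted p = 0.234 to 0.721). The part of these cells in the MSX1, HOXA2 and HOXB7 results was not tested.

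Each group was scanned on days of its own, NP15 on 3 days and each other group on 1, and no day was shared between groups, so that in each comparison the group and the scan day cannot be told apart. When scan day was fitted as a random block, 0 of 28 members were called by limma in each of the 5 comparisons. At an unadjusted p below 0.05, 1 member passed on day 15, 3 on day 18, 1 for the difference between the effects, 4 in the cycle and 2 in pregnancy. The correlation within a scan day (0.336) could be learned only from NP15, the 1 group with more than 1 day. The loss of a call under this block therefore does not tell the group from the scan day. The adjusted p was then 0.520 for MSX2 on day 15 and 0.507, 0.586 and 0.649 for MSX1, HOXA2 and HOXB7 on day 18. It was 0.190, 0.223 and 0.0966 for MSX2, PRRX1 and ZHX2 from NP15 to NP18, and 0.288 and 0.351 for HOXA3 and PKNOX1 from P15 to P18.

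The call of MSX2 on day 15 was also lost without NP15 replicate 1 or 2 or without any 1 of the P15 arrays (limma, adjusted p up to 0.174). Most calls of the whole array were lost there too. Of all 13164 probes, 105 were called with all arrays, and 39 and 8 without NP15 replicates 1 and 2. Without P15 replicates 1, 2 and 3, 4, 6 and 4 were called. On day 18, limma called 0 members without NP18 replicate 4 or P18 replicate 2, and only MSX1 without NP18 replicate 2 or P18 replicate 3. Without these arrays, 546, 428, 636 and 443 of all 13164 probes were called in the same order, against 757 with all arrays. HOXB7 also lost its call without NP18 replicate 3 (limma, adjusted p = 0.0760) or P18 replicate 4 (limma, adjusted p = 0.0508).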

How the data were processed

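Endometrial RNA of 15 cows was measured on one-color arrays. The authors extracted the deposited intensities with Agilent Feature Extraction 9.5, which removed a fitted background from each spot and set spots at or below background to a surrogate value. Flags for spots well above background were deposited beside them. The deposited log2 table of the same arrays was used as an alternative. It equalled log2 intensity minus a constant per array that lay within -0.0126 to -0.00519 of log2 of the 75th percentile, with column medians of -3.19 to -2.73. The methods of the study name the median as the scale.

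Intensities were scaled by the array median, taken over 15208 probes other than controls, and log2-transformed. The 13164 probes with a well above background flag in 3 or more of 15 arrays were fitted with limma 3.58.1 in R 4.3.3, with 1 mean per group over all 15 arrays. Calls needed an adjusted p (Benjamini-Hochberg, over all probes tested) below 0.05 and a fold change over 2. For single genes, mean log2 values of 2 groups were also compared by an exact permutation test (two-sided). Other steps used Python 3.11.15, pandas 2.3.3, scipy 1.17.1 and matplotlib 3.10.9. The procedure was tested on simulated data.

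Members were chosen by probe name and description, and they and the gene lists were chosen with earlier results of these data known. Every member called in a comparison is given with each array of that comparison. The HOX, MSX and DLX probes tested, and the 3 members with the lowest p in each direction of each comparison, are named with group values. List genes with several probes were read from the brightest. Names came from the files and from RefSeq (ARS-UCD2.0), in which 32 of 36 members had a symbol. The alternatives were other scalings and background corrections, other filters, no fold limit, array weights, slide, scan day or replicate number as a block, a fit of the compared groups alone, the methods' t-test, and leaving out each array. Samples with the same replicate number were not paired by the labels.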

Additional observations from a re-analysis of the deposited data

Results flagged for a closer look

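Of 60 groups of 4 arrays checked, 7 held 1 array far from the rest, by the gap to the nearest array divided by the range of the group, and chance alone flags about 1 in 20. DLX6 in NP15 replicate 3 had a ratio of 0.900, at 1.26 array medians against 4.96 to 5.78 in the other arrays. MSX2 in NP18 replicate 1 had a ratio of 0.881, at 1.80 against 3.30 to 3.58, and ZHX1 in the same array had a ratio of 0.844, at 3.41 against 1.57 to 1.77. MSX1 in P18 replicate 2 had a ratio of 0.960, at 19.4 against 25.8 to 26.1. HOXA5 in P18 replicate 1 had a ratio of 0.896, at 3.82 against 2.69 to 2.79. HOXC4 in NP15 replicate 1 had a ratio of 0.902, at 4.27 against 10.04 to 11.03. CRX in P18 replicate 4 had a ratio of 0.869, at 0.0798 against 0.0944 to 0.0968, and was not well above background in any P18 array.

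PRRX1 was higher in every pregnant array than in every non-pregnant array on day 15 and lower in every one on day 18. Its pregnancy effects were -1.54 apart on the log2 scale (day 18 minus day 15), which the test of that difference did not call (limma, adjusted p = 0.0665).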

How the results depend on the processing

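The directions of the members' printed fold changes held under every alternative, with 1 exception: the MEIS3-similar probe, not called, had a difference between the days of -1.10 and one of 0.0087 after normexp background correction. The 75th percentile moved the median of all probes from 0.12 to -0.18 from P15 to P18 and from 0.02 to -0.10 from NP15 to NP18.

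The number of members called on day 15 was 1, and it was 7 with array weights, 0 with scan day as a block, 0 with the 2 groups alone, and 0 by the methods' adjusted t-test and 2 by the unadjusted one. On day 18 it was 3, and it was 0 with scan day as a block and 1 and 5 by the t-test. For the difference between days it was 0, and it was 1 with the 75th percentile, quantile normalization or the authors' table, 3 with normexp and 5 with array weights. Between days of the cycle it was 3, and it was 5 with no filter or array weights, 0 with scan day as a block or the groups alone and 1 by the adjusted t-test. Between days of pregnancy it was 2, and it was 1 with quantile normalization or the adjusted t-test, 0 with normexp, with detection in all 15 arrays or with scan day as a block, and 5 with no filter. The members added with no filter were IRX2 and NANOG in the cycle and IRX2, LHX9 and NANOG in pregnancy. Each was well above background in 0 of 15 arrays, so these added calls were of values at background. Leaving out 1 array gave 0 to 3 on day 15, 0 to 4 on day 18, 0 to 1 for the difference, 3 to 4 in the cycle and 1 to 2 in pregnancy. Of all 13164 probes, 4 to 344, 428 to 1043, 59 to 549, 616 to 1565 and 737 to 1730 were then called, in the same order. PRRX1 joined the 3 members called on day 18 with the 75th percentile, quantile normalization, normexp or the authors' table.

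The share of all probes called moved as well. It was 0.798, 5.75, 2.72, 7.16 and 11.9% for the comparisons in this order. With array weights it was 7.63, 10.8, 11.4, 12.9 and 18.6%, with normexp 0.881, 5.22, 10.5, 6.34 and 8.62%, with no filter 0.776, 5.11, 2.23, 11.5 and 20.3%, and with scan day as a block 0, 0.372, 0, 0.410 and 0%. With the groups alone it was 0.0152% on day 15 and 1.19% in the cycle. The adjusted t-test called 0, 1.43, 1.04 and 11.02% on day 15, on day 18, in the cycle and in pregnancy, and the unadjusted one 3.29 and 8.79% on days 15 and 18. For the difference, the 75th percentile and the authors' table gave 2.13% and quantile normalization 3.52%.

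With the replicate number as a block, 0 members were called on day 15, 3 on day 18, 0 for the difference, 3 in the cycle and 1 in pregnancy, where 0.0608, 4.66, 1.46, 6.29 and 8.70% of all probes were. The numbers did not pair the samples, since same-numbered arrays correlated at -0.259 to 0.304 and 3 of 21 pairs were over 0.1. Weak probes were limited by signal over background.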
